A study of Arabidopsis thaliana with 26 samples.

Results

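The plastid chromosome of Arabidopsis thaliana, a small flowering plant, carries core subunits of the photosynthetic machinery, and 44 of its genes were followed across the series. They are the psa genes of photosystem I, the psb genes of photosystem II, the pet genes of the cytochrome b6f complex, the atp genes of the chloroplast ATP synthase, the ndh genes of the NAD(P)H dehydrogenase-like (NDH) complex, and rbcL, the large subunit of Rubisco. A gene counted as measured where a probe set, a group of short oligonucleotides that reports 1 transcript, was annotated to that plastid gene alone. That held for 43 of the 44 genes, among 22810 probe sets in all: 15 psb, 10 ndh, 6 atp, 6 pet and 5 psa genes, and rbcL. The exception was ndhB, whose probe set names both of its copies.

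Total RNA came from whole 7-day-old seedlings, called de-etiolated in the labels, of seed stock N6159 in the Col background. All groups share that stock, whose genotype the labels leave unstated. Each of 13 groups had 2 arrays, marked with the letters A and B in the sample titles, and each treatment lasted 3 h. Campestanol was applied at 10 µM. The compounds 6-deoxocathasterone, cathasterone, 6-deoxoteasterone, teasterone, 3-dehydro-6-deoxoteasterone, 3-dehydroteasterone, 6-deoxotyphasterol, typhasterol and 6-deoxocastasterone were applied at 1 µM, castasterone at 100 nM and brassinolide at 10 nM. The last group was a mock treatment. The labels do not state whether the letters stand for separate cultures, so a p-value here describes array-to-array spread that may be technical.

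Brassinolide and castasterone are steroid hormones of plants, and the other compounds are their precursors. Plastid genes are read by a bacterial-type RNA polymerase, whose core is plastid-encoded, and by a phage-type polymerase encoded in the nucleus, and many lie in operons whose long transcripts are cut into shorter ones. The proteins of the photosystems, of cytochrome b6f and of the ATP synthase turn light into reducing power and ATP, Rubisco fixes carbon dioxide, and the NDH complex returns electrons from photosystem I to the plastoquinone pool. Plastid mRNAs carry no stable poly(A) tail, and the labels do not name the primer used for labelling. Intensities of different genes are therefore not read as relative amounts of their transcripts.

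The labelled treatment and tissue were checked with marker genes. EXO, a gene induced by brassinosteroids, had intensities of 1087.4 (letter B) and 1232.6 (letter A) after brassinolide, against 134.5 and 206.1 after mock, and it was called higher for 9 of 12 compounds. Of the cell type markers, RCA, the nuclear-encoded activase of Rubisco in green tissue, ranged widely, between 15.5 and 1591 with a median of 581. It was the only 1 of 13 listed green-tissue markers with a probe set of its own. The median of 9 nuclear photosynthesis genes, those of 63 listed with a probe set of their own, ranged from 964 to 2159 over the arrays. A median over 9 genes and a single probe set are unlike measures, so these ranges are not compared. The root markers PYK10 (1164 to 2357) and EXPA7 (106 to 240) were present on every array, while seed markers and PORA had no probe set of their own and were not used here. In whole seedlings, fewer green cells and less plastid RNA per cell cannot be told apart. Across probe sets, the arrays of a group correlated at 0.9475 to 0.9754 (median 0.9666), and arrays sharing a letter but not a group at a median of 0.9734.

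The deposited intensities are on a linear scale, made with MAS5 per the submitters' processing notes. All 43 members had a mean of at least 10 and were tested, and 25 of them had a mean over 1000, where only 551 probe sets of the series lie. For photosystem I, psaA and psaB encode the chlorophyll-binding heterodimer. Over the 26 arrays psaA had a lowest intensity of 1043, a median of 1632 and a highest of 2259. For psaB the same values were 31.5, 749 and 1267. A single array, letter A of 6-deoxocastasterone, gave the lowest psaB value, and the next was 251.5. The iron-sulfur subunit psaC ranged from 421 to 1091, with a median of 545.

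For photosystem II, psbA encodes the D1 protein of the reaction centre, which is replaced continually in the light. Its intensity ranged from 704 to 2331, with a median of 1537. psbB, the inner antenna protein CP47, ranged from 1194 to 2232, with a median of 1605. psbN, known in tobacco to be needed for assembly of the reaction centre, ranged from 48.9 to 196, with a median of 123.2. Within 13 groups, the arrays of a pair differed by a median of 1.19-fold for psbA and 1.15-fold for psbB.

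Cytochrome b6f passes electrons between the photosystems. petB, its cytochrome b6, ranged from 781 to 2018, with a median of 1286. petD, its subunit IV, ranged from 55.3 to 376, with a median of 90.3. In the ATP synthase, atpA encodes the alpha subunit of the catalytic head and ranged from 1196 to 2390, with a median of 1693. atpI, the a subunit in the membrane, ranged from 121 to 481, with a median of 272. atpB, the beta subunit, spread far more: its lowest value was 118 and its highest 1927, a 16.4-fold range.

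The NDH members spread unevenly as well. ndhD, a membrane subunit, ranged from 1005 to 2044, with a median of 1354. ndhF, another membrane subunit, was dim on most arrays, with a median of 14.2, and reached 221. It lay at 26.3 or lower on 18 arrays and at 59.7 or higher on the other 8, so its values fell into separate levels. rbcL ranged from 249 to 896, with a median of 481.

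The first comparison asked whether any compound moved these genes within 3 h. No member was called higher or lower after any of the 12 compounds at an adjusted p under 0.05 (limma, 26 arrays, Benjamini-Hochberg over 17606 probe sets). Of all 516 gene and compound combinations, 2 had an unadjusted p under 0.05, and the lowest adjusted p was 0.4535. For each compound the 0 of 43 stands beside the share of all probe sets called. That share was 2.58% for brassinolide, 2.38% for castasterone, 1.95% for 6-deoxocastasterone, 1.77% for typhasterol and 1.42% for 3-dehydroteasterone. It was 0.557% for 3-dehydro-6-deoxoteasterone, 0.352% for teasterone, 0.193% for 6-deoxotyphasterol and 0.165% for 6-deoxoteasterone. No probe set at all was called for cathasterone, 6-deoxocathasterone or campestanol, with 563, 573 and 272 at an unadjusted p under 0.05. A test for any difference among the 13 groups called 0 members (no member at an unadjusted p under 0.05) and 2.15% of all probe sets. Shares this low leave little room for calls among 43 genes at the rate of the whole array.

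The precision differed greatly between members. The standard error of a log2 change against mock was 0.18 for psbI, a small photosystem II subunit, and 1.35 for ndhF, with a median of 0.35. For 10 members all 12 of the 95% intervals lay within a 2-fold change in either direction. They were psbI, psbD, psbC, psbZ, psaI, psbJ, psbF, petL, psbB and ndhA. For the other 33 at least 1 compound left a 2-fold change inside the interval, so this fit does not exclude a change of that size for them. The fit has no term for the letter, so any difference between the letters counts as spread in these intervals. For rbcL the letter held 76.9% of the variance over arrays, and what neither letter nor group held was 10.1%. For rbcL the log2 changes ran from -0.57 (95% interval -1.88 to 0.74, typhasterol) to 0.09 ± 0.63 (SE, 6-deoxoteasterone). For psbA they ran from -0.56 (-1.24 to 0.13, 6-deoxocastasterone) to 0.23 (-0.45 to 0.92, castasterone).

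**Figure D1:**
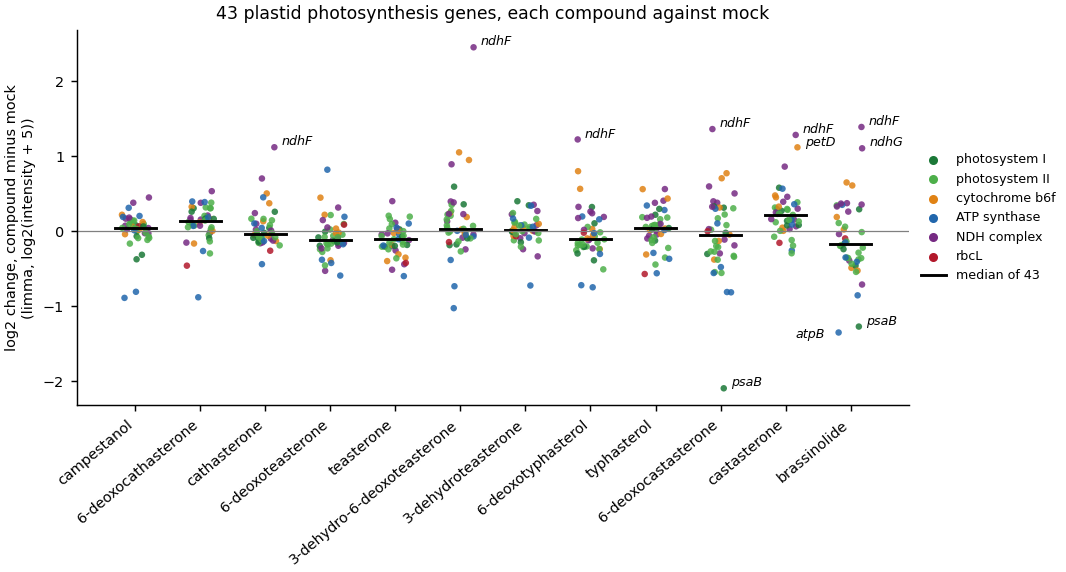
Log2 change of each of the 43 genes after each compound relative to mock (vertical axis, limma on log2(intensity + 5)); points are genes coloured by complex and bars are medians over the 43. The medians lie between -0.16 (brassinolide, 0.03 after quantile normalization) and 0.22 (castasterone), and no point passed adjustment, including psaB after 6-deoxocastasterone at -2.09.

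The change furthest below mock belonged to psaB after 6-deoxocastasterone. Its intensities were 791.2 (letter B) and 31.5 (letter A) after the compound, against 549.3 and 946.8 after mock. The arrays overlapped, and the log2 change was -2.09 ± 0.95 (SE, adjusted p = 0.4535, limma). The low value came from 1 array: with the letter B array alone the change was 0.13, and with the letter A array alone -4.32. On that letter A array psbA and psbC, the D1 protein and the antenna protein CP43, and atpE also had their lowest values of the series. On the same array 8 members had their highest, among them ndhF, petN, psbT and ndhE. How many of all probe sets had their highest or lowest value on that array was not counted. RCA was at 36.5 there, against 584.8 on the letter B array of that group.

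psaB after brassinolide had 348.7 and 251.5, against 549.3 and 946.8 after mock, and these arrays did not overlap (log2 change -1.27 ± 0.95, adjusted p = 0.7988, limma). RCA was low after brassinolide as well, with 53.9 and 304.5, against 729.0 and 662.8 after mock. Whether these changes share a source was not tested.

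ndhF stood furthest above mock, after 3-dehydro-6-deoxoteasterone. It had 135.3 and 73.5 there, against 14.2 and 14.2 after mock, with no overlap. The log2 change was 2.45 ± 1.35 (SE, adjusted p = 0.9553, limma). With only the compound's and the mock arrays in the limma fit it was called (limma, adjusted p = 0.03516), as was psaB after brassinolide (limma, adjusted p = 0.02127). The spread of ndhF among the other groups was large: after brassinolide it had 9.3 (letter B) and 172.1 (letter A), and after 6-deoxocastasterone 5.7 and 221.1.

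Of 43 members, 1 lay below mock for every compound (atpE) and 2 lay above it (ndhC and ndhK). That rests on a single pair of mock arrays that all 12 comparisons share. The share of all probe sets on 1 side of mock for every compound was not counted, so this is not read as a trait of the members. atpE, the epsilon subunit of the ATP synthase, had its highest group mean in mock (1496.8 ± 63.1, SD, n = 2), with log2 changes from -1.03 to -0.26. In 10 of the 12 compounds both atpE values lay under both mock values. ndhC had its lowest group mean in mock (861.7 ± 19.0), with log2 changes from 0.02 to 0.53, and 8 compounds did not overlap with mock. After 6-deoxocastasterone, where its adjusted p was lowest, it had 1106.7 and 1351.0, against 848.3 and 875.1 after mock (log2 change 0.50 ± 0.24, adjusted p = 0.519, limma). After 6-deoxocathasterone it had 1123.7 and 1388.8 (log2 change 0.53 ± 0.24, adjusted p = 0.9998, limma). ndhK was lowest in mock too, at 330.0 on average. Over all probe sets, the share without overlap with mock ran from 22.8% (campestanol) to 37.8% (castasterone).

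Over the 43 members, the median log2 change was -0.16 after brassinolide at 10 nM (27 negative) and 0.22 after castasterone at 100 nM (37 positive). Quantile normalization turned the brassinolide median to 0.03. These compounds were given at different doses, so the values are only set side by side. Over all probe sets the medians were -0.001 and 0.03. Other bright probe sets, 514 with a mean over 1000 that are not plastid-encoded, had medians of -0.26 (470 negative) and 0.03 (231 negative). The 9 nuclear photosynthesis genes had -0.35 (9 negative) and 0.14 (3 negative), and none of them was called after either compound. After castasterone the arrays of the group differed. The letter A array alone gave a median of 0.55 with 40 of 43 positive, and the letter B array alone -0.12 with 10 positive. On the letter A array 19 members had their highest value of all 26 arrays, among them atpA, psbB, psbC, petA and ndhI. After brassinolide, 8 members had their lowest value on the letter B array, among them psbI, petB and ndhI. These castasterone and brassinolide arrays also had the highest (1690) and the lowest (1076) median intensity of the other bright probe sets. The share of all probe sets at their highest or lowest value on these arrays was not counted.

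By complex, the medians after brassinolide were -0.38 for the ATP synthase genes (1 of 6 positive), -0.24 for photosystem I (1 of 5) and -0.22 for photosystem II (3 of 15). They were 0.34 for the NDH genes (7 of 10) and 0.11 for cytochrome b6f (4 of 6). These classes were not tested against each other. The number of members whose arrays did not overlap with mock ranged from 2 of 43 (cathasterone) to 17 of 43 (brassinolide). Over all probe sets that share was 26.9% for cathasterone and 36.7% for brassinolide.

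The next comparisons set compounds at 1 µM that differ by a single change against each other, 12 comparisons in all. In 4 pairs the compound with a ketone on the second ring was set over its 6-deoxo form, and the average of the pairs was also taken. The other 7 set a compound over the one before it in the pathway. No member was called in any of the 12, and the lowest adjusted p was 0.8907 (limma, Benjamini-Hochberg over 17606 probe sets in each). Of 516 combinations 1 had an unadjusted p under 0.05. In 11 of these comparisons 0% of all probe sets were called, and in 6-deoxocastasterone over 6-deoxotyphasterol 0.00568%.

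For the ketone averaged over 4 pairs, the median over members was -0.01, and 39 of 43 had a 95% interval within a 2-fold change. psbA differed by 0.09 (-0.26 to 0.43) on the log2 scale and rbcL by -0.20 (-0.85 to 0.46). In single pairs between 25 and 27 members had such an interval. ndhF differed most in a pair, with 13.6 and 7.5 after 3-dehydroteasterone, against 135.3 and 73.5 after 3-dehydro-6-deoxoteasterone (log2 difference -2.79, interval -5.62 to 0.05). Intervals this wide do not show that the compounds act alike.

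Among the steps, psaB after 6-deoxocastasterone over 6-deoxotyphasterol gave the only unadjusted p under 0.05, again from the letter A array with 31.5. psbI had 1295.6 ± 12.7 after 6-deoxoteasterone and 1683.6 ± 209.2 after 6-deoxocathasterone (SD, n = 2 each; log2 difference -0.37, interval -0.76 to 0.01). psaJ, a small photosystem I subunit, had 836.2 ± 128.5 after 6-deoxotyphasterol and 1646.8 ± 88.3 after 3-dehydro-6-deoxoteasterone (log2 difference -0.98, interval -2.04 to 0.08). Both intervals reach 0.

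The last comparison was between the letters. Each group held 1 array of each letter, so the letters could be compared within groups. Of the 43 members, 30 were called lower on letter B arrays and 0 higher (limma with group and letter as terms), where 14.1% of all probe sets were called lower and 21.7% higher, 35.8% in all. The median log2 difference, B minus A, was -0.36 over members and 0.05 over all 17606 probe sets. The sum of the members' intensities was 1.13 to 1.45% of the array's total on letter B arrays (median 1.29%) and 1.37 to 1.93% on letter A arrays (median 1.57%). It was lower on the B array in 13 of 13 groups. The labels do not say what a letter stands for, and what lies behind this difference was not tested.

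rbcL showed the difference in every group. It had 249, 368 and 494 (lowest, median, highest) on the 13 letter B arrays, against 422, 807 and 896 on the letter A arrays. Only the letter A array of typhasterol, at 421.5, fell inside the letter B range. The log2 difference was -0.99 ± 0.09 (SE, adjusted p = 9.388e-08, limma), with B below A in 13 of 13 groups. ndhK, an iron-sulfur subunit of the NDH complex, had 231, 303 and 365 on letter B arrays, against 356, 464 and 554 on letter A arrays. It differed by -0.61 ± 0.06 (limma, adjusted p = 3.304e-07), also in 13 of 13 groups. For these genes the letter held 76.9% and 77.5% of the variance over arrays.

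atpB had the largest fall. It had 118, 519 and 1090 on letter B arrays, against 223, 1367 and 1927 on letter A arrays, and B was below A in 12 of 13 groups. The log2 difference was -1.45 ± 0.30 (adjusted p = 0.0007956, limma). The exception was 6-deoxocastasterone, where the B array had 815.4 and the A array 222.7. psbA, by contrast, had 1184, 1430 and 1912 on letter B arrays and 704, 1630 and 2331 on letter A arrays, with B below A in 7 of 13 groups. Its log2 difference was -0.04 ± 0.12 (limma, adjusted p = 0.8315), and it turned to 0.24 after quantile normalization of the arrays.

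**Figure D2:**
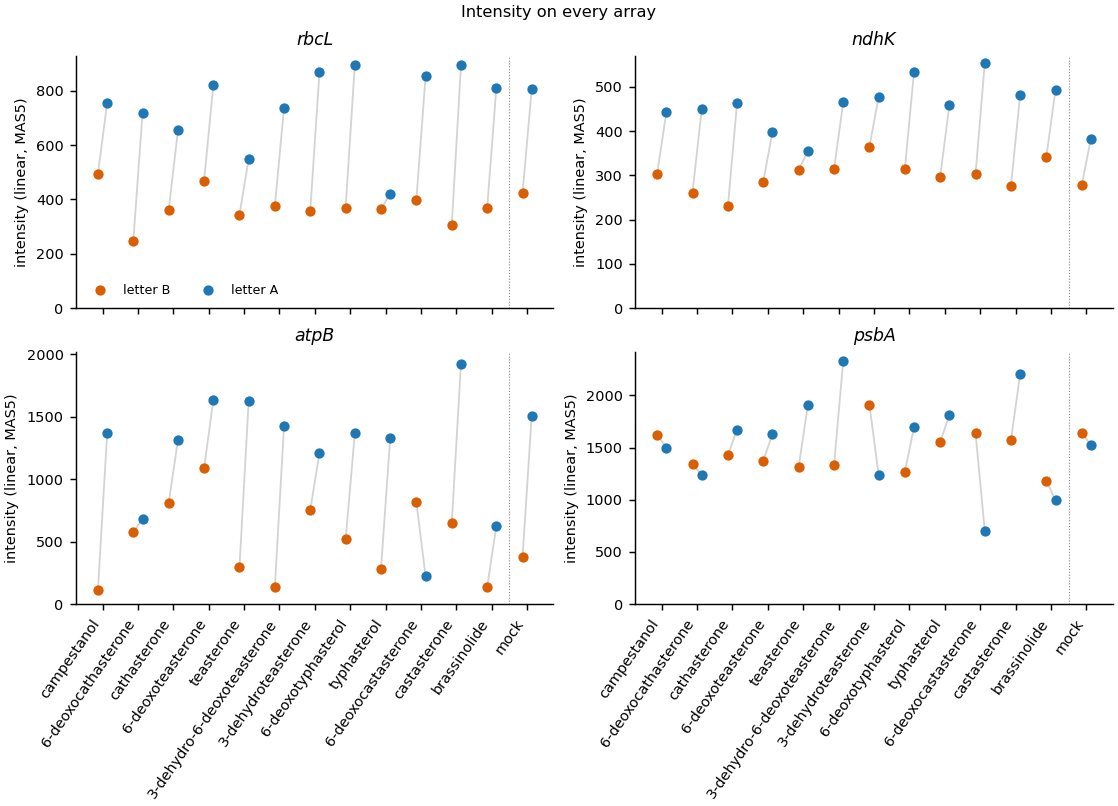
Intensity of rbcL, ndhK, atpB and psbA (linear axes from 0) on every array, with the letter B array left of the letter A array of each group and mock at the right; grey lines join the arrays of a group. B is below A in 13 of 13 groups for rbcL and ndhK, in 12 for atpB and in 7 for psbA.

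Cytochrome b6f had petD (-1.01 ± 0.19), petN (-0.78 ± 0.14), petA, its cytochrome f (-0.39 ± 0.10), and petL (-0.31 ± 0.07) called lower on letter B arrays, 4 of 6 genes. In the ATP synthase 4 of 6 were called: atpB, atpF (-0.70 ± 0.15), atpH (-0.41 ± 0.08) and atpA (-0.30 ± 0.08). atpF and atpH encode the b subunit of the stalk and the c subunit of the membrane ring. The uncalled genes there were atpE (-0.33 ± 0.20) and atpI (-0.20 ± 0.15). In the NDH complex 8 of 10 were called, with ndhF (-1.45 ± 0.39) and ndhG (-0.92 ± 0.19) furthest down. ndhF was over 50 on 1 letter B array and on 7 letter A arrays.

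In photosystem I 4 of 5 genes were called lower, between -0.24 (psaI) and -0.58 (psaC). psaB was not called, at -0.23 ± 0.35, with the letter A array of 6-deoxocastasterone in that spread. Photosystem II had the smallest share in the deposited values, 9 of 15, with a median of -0.24. psbH (-0.57 ± 0.09), a phosphoprotein, and psbM (-0.55 ± 0.09) were furthest down. psbE and psbF, the subunits of cytochrome b559, were at -0.45 ± 0.08 and -0.41 ± 0.07. psbL, from the same transcript, was the only member of 43 with a positive difference, at 0.12 ± 0.10, and it was not called. The other 5 uncalled photosystem II genes were psbA, psbC, psbJ, psbN and psbT. After quantile normalization psaC alone was called lower in photosystem I, and psbE, psbF, psbH, psbM and psbN in photosystem II. Photosystem I then had the smaller share.

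**Figure D3:**
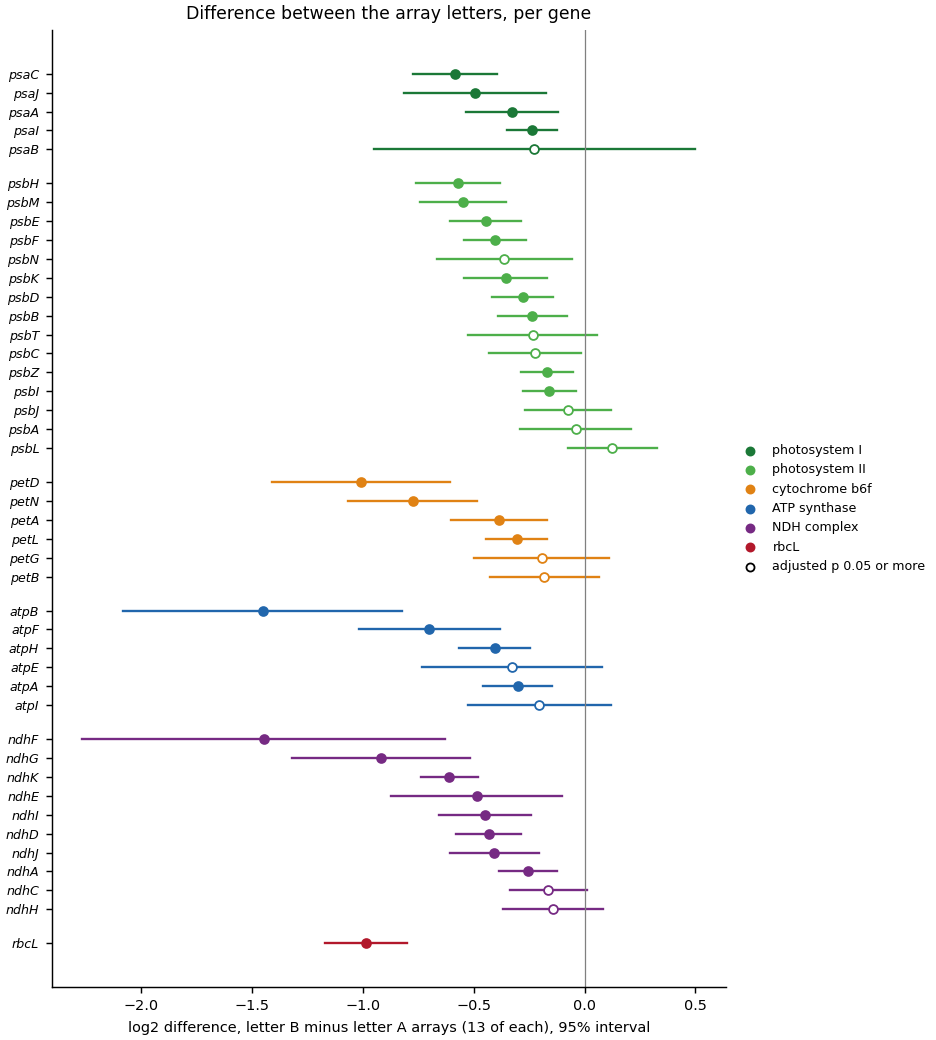
Log2 difference between letter B and letter A arrays for each gene (points) with its 95% interval (lines), grouped by complex; filled points passed an adjusted p of 0.05. Points run from -1.45 (atpB) to 0.12 (psbL), and 42 of 43 lie under 0; after quantile normalization 7 of these 42 lie above 0.

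Probe sets outside these genes differed between the letters as well, and their counts were not tested against those of the members. Of 26 other plastid-encoded probe sets, 12 were called lower on letter B arrays and 5 higher, with a median of -0.20. Among them rps14 and rpoB fell by 1.28 and 0.80 on the log2 scale, and rps18 rose by 0.43. Of 19 mitochondrion-encoded probe sets 17 were called lower, with a median of -0.59. Several of these 19 name the same gene (nad1 or nad5), and many were dim, with means down to 6.7 on letter B arrays. Of 9 nuclear photosynthesis genes 6 were called lower and 1 higher (LHCB4.3, a minor antenna protein, at 0.66), and RCA was lower by 1.33 ± 0.51 (adjusted p = 0.04932, limma).

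Brightness moved with the letter too. The brightest probe set of an array had a median of 1836 on letter B arrays and 2147 on letter A arrays, lower on B in 11 of 13 groups. Of 514 other probe sets with a mean over 1000, 334 (65%) were called lower, with a median of -0.24, and 13 higher. Of the 25 members in that range 20 were called lower, with a median of -0.33. Between 300 and 1000, 7 of 11 members were called lower (median -0.49), where 26.7% of the other probe sets were. Between 100 and 300 it was 2 of 6, where 19.4% of the others were. How much of the members' difference comes with brightness was not tested.

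Quantile normalization, which gives all arrays the same distribution of values, left 20 members lower and 1, psbA, higher. It kept 19 of the 30 calls. All 11 members that lost the call had means over 1000: psaJ, psbK, psaA, petL, atpA, psbD, ndhA, psaI, psbB, psbZ and psbI. rbcL (-0.96), ndhK (-0.61), atpB (-1.31) and petD (-1.06) kept nearly the same difference. Over all probe sets the calls were 16.2% lower and 17.6% higher with quantile normalization, and 20.8% lower and 13.5% higher with median centring of the arrays.

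**Figure D4:**
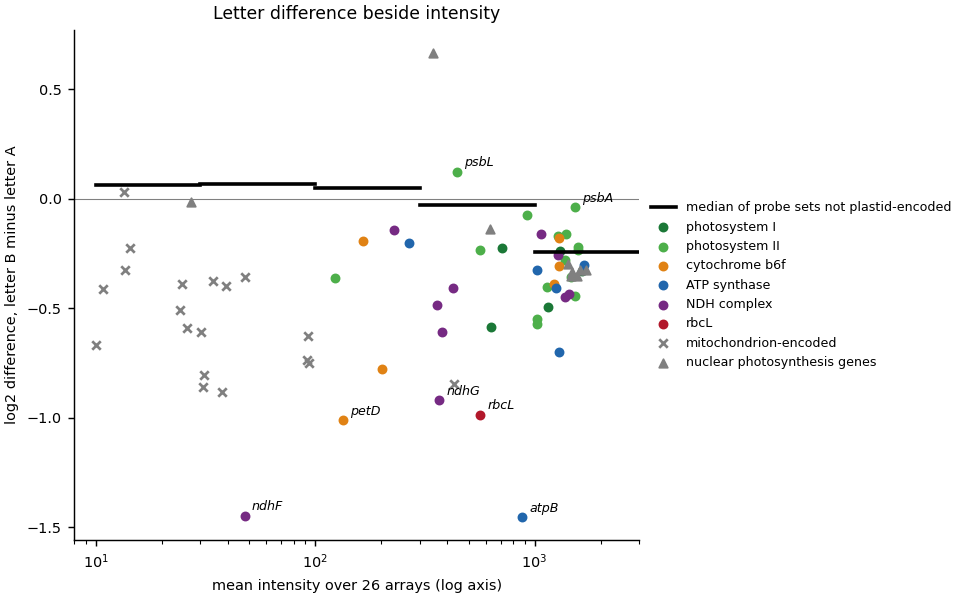
Log2 difference between letter B and letter A arrays (vertical axis) beside mean intensity over 26 arrays (horizontal log axis) for the 43 genes, mitochondrion-encoded probe sets and nuclear photosynthesis genes; black bars are medians of probe sets that are not plastid-encoded, in 5 ranges of intensity. The bars lie between 0.07 and -0.03 up to 1000 and at -0.24 above it, and 42 of 43 genes lie under 0, of which 7 turn positive after quantile normalization.

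The variance of each member over the arrays was split among letter, groups and the rest. The median share over members was 31.7% for the letter, 29.6% for the 13 groups and 33.8% for the rest. Over all probe sets tested these medians were 10.7%, 43.2% and 36.8%. The letter takes 1 of 25 degrees of freedom (4.0%) and the groups take 12 (48.0%), so the members' median share lay above that proportion for the letter and below it for the groups. The letter held more than the groups for 22 of 43 members, and over 50% for rbcL, ndhK, psbH, ndhD, psbF, psbE and psaC. Within groups the number of members with B below A ran from 19 of 43 (3-dehydroteasterone) to 42 of 43 (6-deoxotyphasterol and cathasterone), and in mock it was 37.

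How far the members moved together depended on what was taken off first. With deviations from group means, which keep the letter difference, the median Pearson correlation over the 903 pairs of members was 0.51. The 2 arrays of a group then deviate equally in opposite directions, so each group holds 1 separate value. With the mean of each letter taken off and group differences kept, the median was 0.11 (26 arrays, which all pairs share). Taking off both was not done, so the change in the median is not the effect of the letter alone. With the letter means off, pairs ran from -0.66 (atpI and atpB) to 0.93 (petN and ndhF). Around psaA, 18 members had a correlation over 0.5, led by ndhI (0.92), psbM (0.88), psbC (0.88), ndhD and atpA (0.85 each). Another 13 had one under -0.3, led by psbT (-0.55), ndhE (-0.52) and ndhJ (-0.48). These limits were chosen after the values were seen, so the sets are a description.

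The sets also differed in how they went with other bright probe sets. The correlation with the median of the other bright probe sets ran from 0.59 to 0.96 in the psaA set (psaA included) and from -0.46 to -0.24 in the other. RCA correlated with psaA and ndhI at 0.85 each and with psbT at -0.66. On the 4 arrays where RCA was at 53.9 or lower, psaA was at 1149 or lower. Those arrays were letter B of 3-dehydro-6-deoxoteasterone, teasterone and brassinolide, and letter A of 6-deoxocastasterone.

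The levels of ndhF were set beside those of other members, with a limit of 50 chosen after its values were seen. On the 8 arrays where ndhF was over 50, petD lay between 158.6 and 376.2, and on the other 18 between 55.3 and 109.4, without overlap. petN lay between 234.6 and 397.9 on the same 8 arrays and between 116.8 and 212.0 on the other 18. Other NDH subunits overlapped: ndhG lay between 422.5 and 906.8 on the 8 arrays and between 167.6 and 467.3 on the other 18. For ndhE the ranges were 241.9 to 683.3 and 151.1 to 422.8. psaA did not separate in this way, with medians of 1666 and 1632. The 8 arrays were letter B of 3-dehydro-6-deoxoteasterone and letter A of the same compound, cathasterone, 6-deoxotyphasterol, typhasterol, 6-deoxocastasterone, castasterone and brassinolide.

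**Figure D5:**
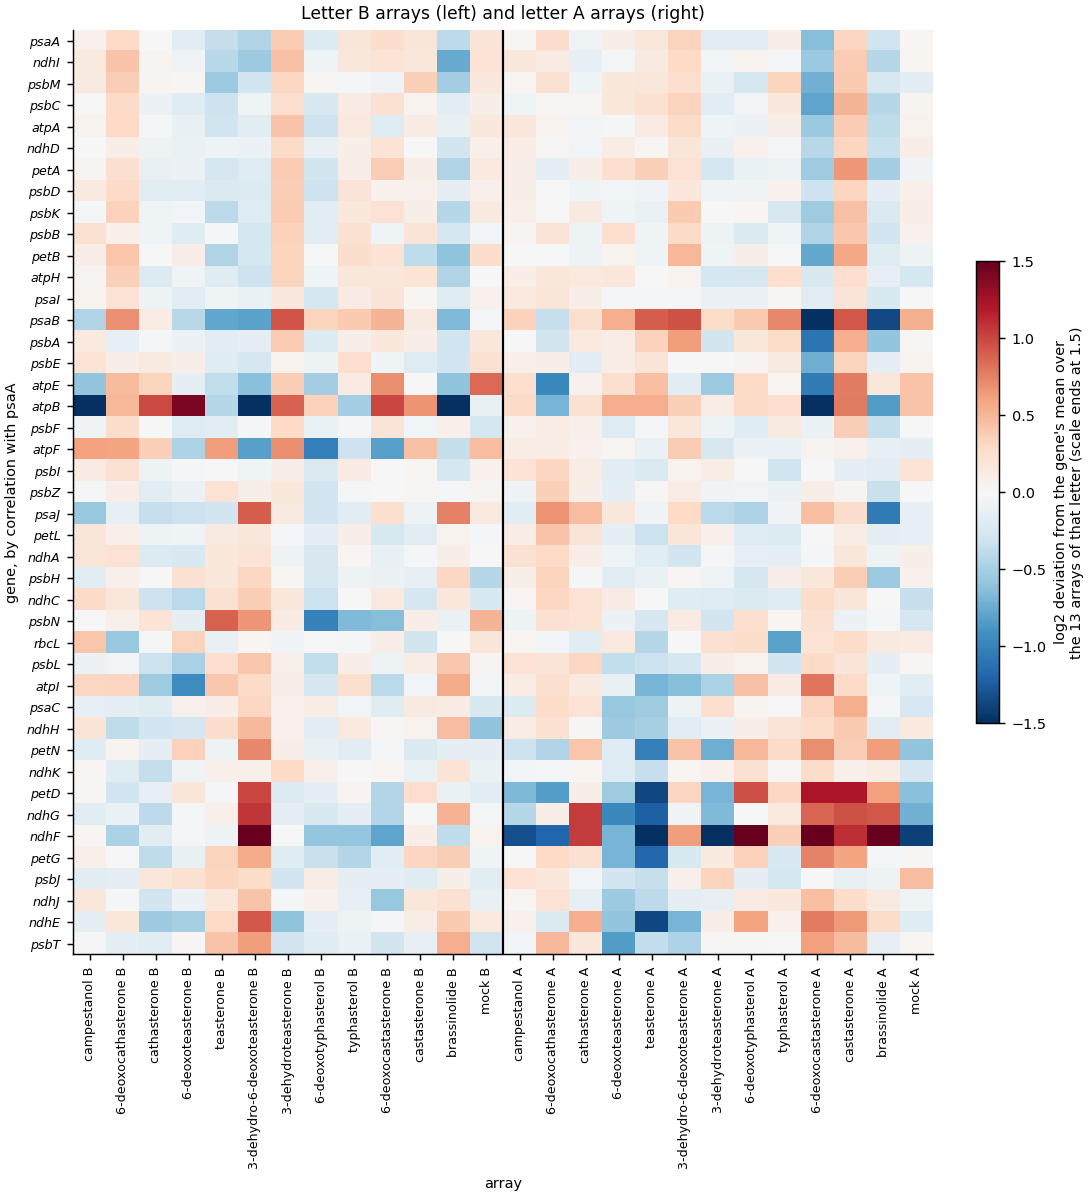
Log2 deviation of each gene from its mean over the 13 arrays of a letter (colour, scale ends at 1.5 in either direction), letter B arrays left and letter A arrays right; genes run down the page from the highest to the lowest correlation with psaA. On the letter A array of 6-deoxocastasterone the upper genes are low and the lower ones high, while on the letter A array of castasterone most genes of both kinds are high.

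Genes known to be transcribed together did not always vary together. Over 55 pairs within 10 transcription units the median correlation with the letter means off was 0.29, and over the 848 other pairs 0.11. psaA and psaB, neighbours on 1 transcript, correlated at 0.76, and atpB and atpE at 0.68. In the long ndhH to ndhD unit, ndhI and ndhD correlated at 0.85 but ndhI and ndhE at -0.46. In the psbB unit, psbB and psbT had -0.37, and psbT and petB -0.49. By letter, petD was furthest down in this unit, called lower at -1.01. psbB was called lower at -0.24 and petB, at -0.18, was not, but these 2 genes hardly differed. The difference of psbB from petB was -0.05 (SD 0.42 over groups), with psbB further down in 7 of 13 groups. petD was further below its letter A value than psbB in 10 of 13 groups.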

How the data were processed

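RNA of 26 seedling samples in 13 groups was measured on 1-colour Affymetrix arrays. The deposited intensities are MAS5 values per the submitters' processing notes, on a linear scale, and the authors' version and settings were not given there. Depth does not apply to arrays, whose number limits the precision. Groups were taken from the labelled treatment of each sample, and letters from the sample titles. Probe sets were named from the platform annotation with RefSeq symbols (assembly TAIR10.1, used for names only).

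Values were analysed as log2(intensity + 5) in 17606 probe sets with a mean of at least 10. A fold change on this scale understates the change of dim genes. limma 3.58.1 in R 4.3.3 fitted 13 group means (13 residual degrees of freedom), and group plus letter for the letters (12). Variances were moderated with an intensity trend, and p-values were adjusted by Benjamini-Hochberg over all probe sets, with 0.05 as threshold. All 43 members are described. The members and gene lists were chosen with earlier results of these data known. In data simulated for brassinolide against mock (17606 probe sets), 66% of genes changed by a log2 of 1 were recovered, and 17 unchanged ones were called. The changed genes were drawn from all probe sets, and no letter difference was simulated. The noisiest probe sets were given less spread than they had, so the 66% does not describe members such as ndhF. Alternatives were pseudocounts of 1 and 16, no filter or a minimum of 20, quantile normalization, median centring, no trend, the compared arrays alone, a letter block, single letters and leaving out each array.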

Additional observations from a re-analysis of the deposited data

How the results depend on the processing

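Against mock, 0 members were called under 8 of the 9 alternatives that kept all arrays of a comparison. With only the compared arrays in the fit, 1 was called for 3-dehydro-6-deoxoteasterone (ndhF) and 1 for brassinolide (psaB), 2 in all. Leaving out 1 array gave 0 to 1 call for 6-deoxocastasterone, and 0 to 1 over the 12 compounds: psaB was called without the letter B array of 6-deoxocastasterone (log2 change -4.32, limma, adjusted p = 0.005573), when the group rests on 1 array assumed to vary like the others. The cause was not tested. The comparisons among compounds and the test over 13 groups gave 0 members in every alternative run.

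For the letters, 20 to 33 members were called lower under other settings and 27 to 32 when an array was left out, and 18 of the 30 kept the call in all 33 alternatives. Of these alternatives 26 leave out 1 array. Leaving out either array of a group gives the same letter difference, so these are not 26 separate checks. Quantile normalization called 1 member higher, psbA, whose difference reversed to 0.244. It also reversed when an array of teasterone (0.002) or 3-dehydro-6-deoxoteasterone (0.024) was left out, in a range of -0.144 to 0.024. The median after castasterone ranged from -0.123 to 0.549 when an array was left out.

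The labels do not say whether arrays of the same letter were handled together. Over all probe sets tested, differences between the letters correlated over 0.1 in 76 of 78 pairs of groups (lowest -0.022, median 0.317). Over the members they did so in 52 of 78 (lowest -0.723, median 0.198). With the letter as a replicate block, 0 members were called against mock (lowest adjusted p = 0.136, limma), with 20 at an unadjusted p under 0.05. The share of all probe sets called was then 5.21% for brassinolide, 5.32% for castasterone and 4.57% for 6-deoxocastasterone, against 2.58%, 2.38% and 1.95% without the block. Under the block, 0 members were called among compounds and 0 in the test over groups, where calls over all probe sets were 883 and not 378. Without the block and with 2 arrays a group, the standard error of a change against mock reached 1.35 (ndhF).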

Other observations

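The probe set that names both copies of ndhB, a membrane subunit of the NDH complex, is not among the 43 genes. Its lowest, median and highest intensities were 28.7, 44.2 and 100.0 on letter B arrays and 32.8, 110.7 and 219.3 on letter A arrays, with means of 48.6 ± 17.3 and 110.7 ± 70.2 (SD, n = 13 each). The mitochondrion-encoded probe sets had a median intensity of 18.5 to 26.2 on letter B arrays and 26.6 to 53.4 on letter A arrays, lower on the B array in 13 of 13 groups.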
